A study of Arabidopsis thaliana with 16 samples.

Results

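Lysine synthesis, the charging of tRNA with amino acids and protein acetylation are each represented here by 1 Arabidopsis thaliana gene that was low in the gun1 mutant. The genes are AT3G53580 (diaminopimelate epimerase), AT4G33760 (a class II aminoacyl-tRNA synthetase) and AT2G39000 (an acetyltransferase). They were chosen from earlier results of this same comparison, as members of the 12 largest falls in gun1 among probes that name a single gene. Each had 1 probe naming it alone, so they are 3 of the 691 genes that the array names singly, by 692 of its 3439 probes. Probes naming several genes listed none of the 3 by locus name. Because the contrast itself chose them, their differences between the genotypes are given below as descriptions, without a test.

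Total RNA was measured in 8 samples of gun1, which carries the gun1-1 allele in ecotype Columbia 0 and is described by its submitters as impaired in plastid signaling, and in 8 samples of wild type (WT) Columbia 0. In each genotype the samples are numbered 1 to 8. Tissue, age, growth conditions and array processing are not given in the labels. Whether each sample was a separate plant or culture is not said either, and p-values then cover only the variation among these 16 samples, part or all of which may be technical. GUN1 (AT2G31400), a plastid pentatricopeptide repeat protein, was named singly by 0 probes, and 0 probes naming several genes listed it by locus name. The mutation was therefore not checked in these values.

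In plants, lysine is made in the plastid by the diaminopimelate branch of the aspartate family pathway, which also leads to threonine, methionine and isoleucine. Diaminopimelate epimerase converts LL-diaminopimelate to the meso form, the direct precursor of lysine. Aminoacyl-tRNA synthetases join each amino acid to its tRNA, and nuclear genes supply the enzymes that work in the cytosol and in both organelles. AT4G33760 belongs to the class that holds the aspartate, asparagine and lysine enzymes, and its product is an organellar aspartate type. AT2G39000 encodes a plastid enzyme of the GNAT superfamily that acetylates protein N termini. All 3 proteins are thus encoded in the nucleus and known as organelle proteins. The locus names place the genes on chromosomes 3, 4 and 2. RefSeq lists 1 transcript for AT3G53580, 2 for AT4G33760 and 4 for AT2G39000, and a single probe cannot tell the transcripts of a gene apart.

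The deposited values are linear intensities that run from 0 to 100 in every sample, so a value of 1 is 1% of the highest value of a sample. Their median over all probes was higher in gun1, at 0.216 to 0.259, than in WT, at 0.130 to 0.157, and 193 to 274 values per sample were listed at 0 in gun1 against 250 to 451 in WT. The samples were therefore quantile normalized, which gives every sample the same distribution, and values listed at 0 or below a floor of 0.0313 were set to that floor. The first principal component of the normalized values separated the genotypes and carried 29.3% of the variance. Numbers 7 and 8 of both genotypes stood apart on the second, which carried 13.5%, so differences are also given without them. Numbers 3 to 6 of both genotypes lay together on the opposite side of that component, with numbers 1 and 2 between. Over all 3419 tested probes limma called 1088 at an adjusted p under 0.05, which is 31.8%, with 521 lower (15.2%) and 567 higher (16.6%) in gun1.

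AT3G53580, the lysine gene, was lower in gun1 in all 8 numbers after normalization. Its deposited intensity in gun1 was 0.139, 0.0759, 0, 0, 0.134, 0, 0.0273 and 0.0556 in the numbers 1 to 8. In WT it was 0.204, 0.111, 0.0908, 0.0429, 0.0985, 0.117, 0.144 and 0.0974 in the same numbers. The gene was thus listed at 0 in 3 gun1 samples and in 0 WT samples, and the deposited ranges overlapped, with gun1 number 5 above WT number 5. After normalization 5 of the 8 gun1 samples lay at the floor of 0.0313, and the highest was 0.109. The lowest, median and highest normalized intensities in WT were 0.0819, 0.147 and 0.249. The gun1 samples of numbers 1 and 5, at 0.0927 and 0.109, exceeded the lowest WT sample, number 4, so the normalized groups overlapped as well.

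The difference in AT3G53580 was -1.77 on the log2 scale (gun1 minus WT, means of 8 samples each), or a geometric mean in gun1 that was 0.293 times that in WT. The SD of log2 intensity between samples was 0.76 in gun1 and 0.47 in WT. The size of the difference rested on the floor: it was -0.69 with the floor at the 20th percentile of positive values and -2.73 with the floor at the 1st, against the 5th used here. Without any scaling it was -1.08.

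AT4G33760, the aminoacyl-tRNA synthetase, showed the clearest separation of the 3 genes. Its lowest, median and highest deposited intensities were 0.147, 0.168 and 0.350 in gun1, against 0.389, 0.491 and 0.670 in WT. No sample was at 0 or at the floor, and every gun1 sample lay below every WT sample before normalization. The normalized intensity averaged 0.154 ± 0.0718 in gun1 and 0.543 ± 0.0859 in WT (SD, n = 8 each). The normalized groups did not overlap either: the highest gun1 sample, number 5, reached 0.323, and the lowest WT sample, number 7, had 0.456. Such a separation of normalized values, with gun1 below, was found in 114 of the 3419 tested probes (3.33%), and the gene was chosen by this contrast. The share of probes separated in deposited values was not counted.

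The log2 difference in AT4G33760 was -1.90, so that its geometric mean in gun1 was 0.267 times that in WT. The SD of log2 intensity was 0.53 in gun1 and 0.22 in WT. Number 5 of gun1 stood far above the other 7 gun1 samples, whose median was 0.130, and without it the difference was -2.07. Changing the floor left this gene at -1.90, because none of its samples lay below any of the 3 floors. In bulk RNA of this kind, fewer cells that express a gene and less of its RNA per cell cannot be told apart.

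AT2G39000, the acetyltransferase, was dim in both genotypes and spread widely in WT. Its deposited intensity in gun1 was 0.0618, 0.101, 0.0316, 0.103, 0.0538, 0.0621, 0.0524 and 0.0293 in the numbers 1 to 8. In WT it was 0.177, 0.157, 0.0964, 0.178, 0.0507, 0.0595, 0.0369 and 0.132. The WT numbers 3, 5, 6 and 7 fell within the gun1 range, and in the numbers 5, 6 and 7 the deposited value was slightly higher in gun1. After normalization the lowest, median and highest intensities were 0.0313, 0.0367 and 0.0874 in gun1, 3 of them at the floor, against 0.0549, 0.155 and 0.235 in WT. All 8 numbers were then lower in gun1, yet the groups still overlapped, through WT number 7 and the gun1 numbers 2 and 4.

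The log2 difference in AT2G39000 was -1.67, a geometric mean in gun1 of 0.314 times that in WT, with an SD of log2 intensity of 0.55 in gun1 and 0.72 in WT. It shrank to -0.76 without scaling and to -0.67 with the floor at the 20th percentile, where that floor held all 8 gun1 samples and 2 WT samples. A floor at the 1st percentile gave -1.91.

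**Figure D1:**
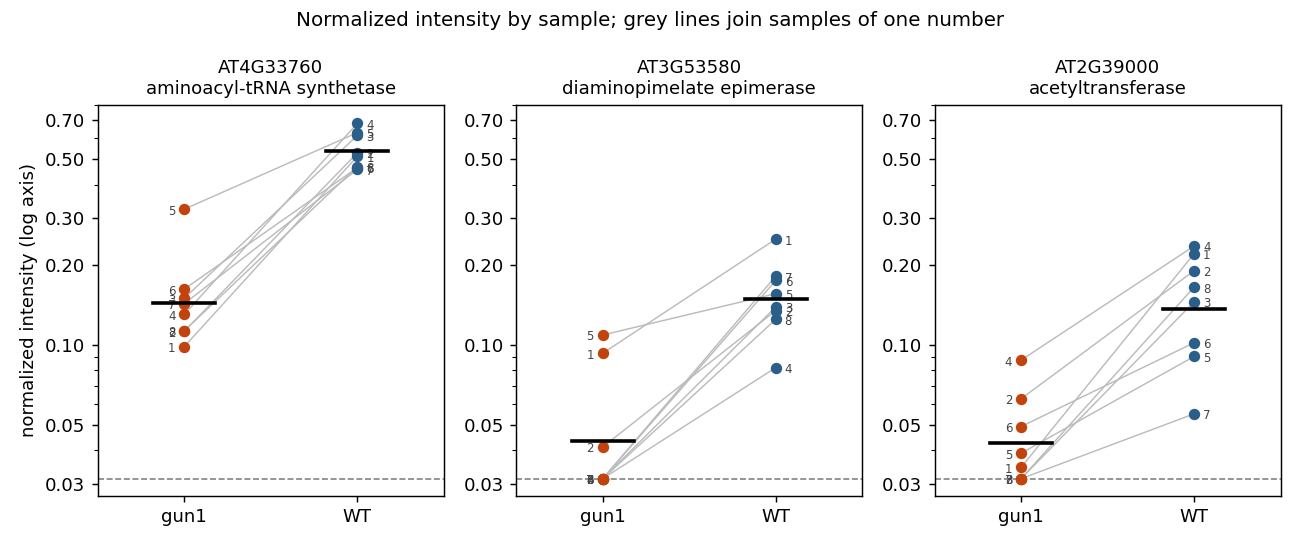
Normalized intensity (log axis) of the 3 genes in the 8 gun1 and 8 WT samples, with sample numbers beside the points, grey lines between samples of the same number, black bars at the geometric means and a dashed line at the floor of 0.0313. Only AT4G33760 has no overlap between genotypes, while 5 gun1 samples of AT3G53580 and 3 of AT2G39000 lie at the floor.

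**Figure D2:**
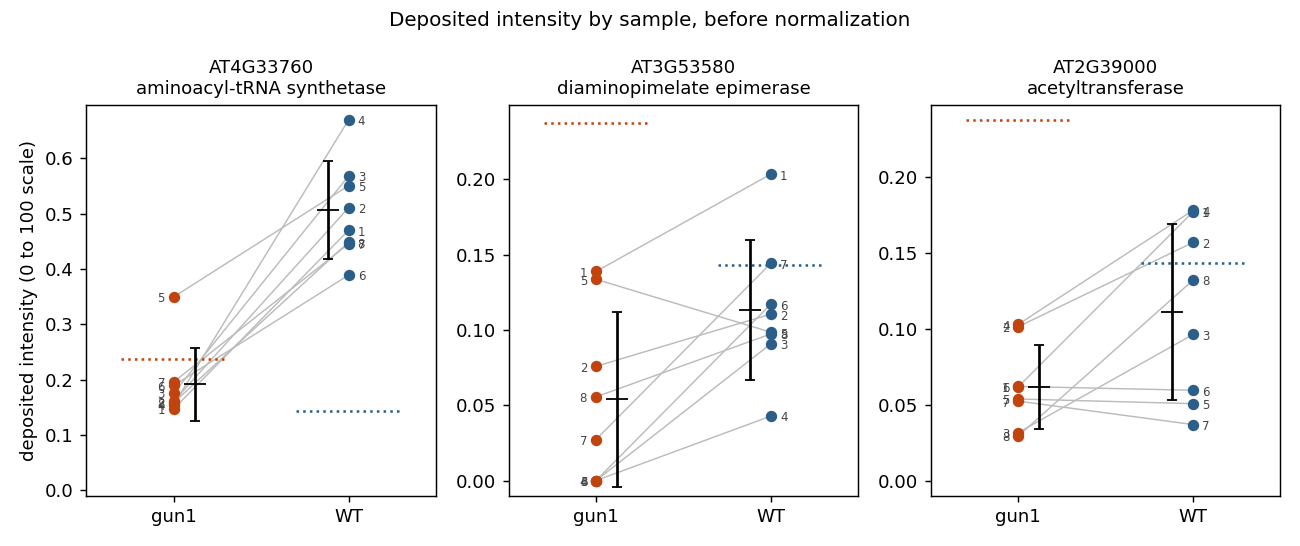
Deposited intensity (linear axis, scale of 0 to 100) of the same probes in the same samples, with the mean ± SD of 8 samples in black and the genotype's mean of the sample medians over all probes as a dotted line. The dotted line is higher in gun1 than in WT, whereas most points are lower in gun1, and AT2G39000 is slightly higher in gun1 in the numbers 5, 6 and 7.

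Position within a sample gives a view of the same values that needs neither a scale factor nor a floor. Quantile normalization keeps this order within a sample, so the positions are no separate evidence beside the normalized values. For AT3G53580, the share of the 3439 probes with a lower deposited value had a median of 10.2% in gun1 (range 0 to 31.3%) and of 40.6% in WT (24.4 to 59.8%). AT4G33760 had a median of 38.0% in gun1 (28.8 to 68.4%) and of 80.3% in WT (77.6 to 85.1%). AT2G39000 had a median of 14.0% in gun1 (8.81 to 25.8%) and of 42.4% in WT (17.8 to 57.7%). All 3 probes therefore moved down the order of brightness in gun1, in each of the 8 numbers. In WT, AT3G53580 and AT2G39000 were already dimmer than the median probe in most samples. Brightness also depends on the probe, so these positions do not rank the genes by transcript abundance.

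Within numbers, the differences varied in size. For AT3G53580 the log2 difference ranged from -2.53 in number 7 to -0.52 in number 5, with a median of -1.85. AT4G33760 ranged from -2.39 in number 4 to -0.96 in number 5, with a median of -2.04. AT2G39000 ranged from -2.67 in number 1 to -0.81 in number 7, with a median of -1.51. Number 5 thus gave the smallest difference for the lysine and synthetase genes, and after normalization its gun1 sample was the highest of its genotype for both. After normalization, being lower in all 8 numbers was a property of 419 of the 3419 tested probes (12.3%). In deposited values gun1 was lower in 8 of 8 numbers for AT4G33760, 7 of 8 for AT3G53580 and 5 of 8 for AT2G39000, and 189 of the 3419 probes (5.53%) were lower in all 8.

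The first and the last numbers were also taken alone, and their differences were not tested against each other. These subsets cut across the groups seen on the second principal component. In numbers 1 to 4 alone the log2 difference was -1.67 for AT3G53580, -2.26 for AT4G33760 and -1.98 for AT2G39000. In numbers 5 to 8 alone it was -1.88, -1.55 and -1.37 for the same genes. Without the numbers 7 and 8, which stood apart, it was -1.61 for AT3G53580, -1.92 for AT4G33760 and -1.69 for AT2G39000. The difference was negative for all 3 genes in each of these subsets. That sign was fixed beforehand, because each gene was lower in gun1 in every number, so only the sizes are informative.

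**Figure D3:**
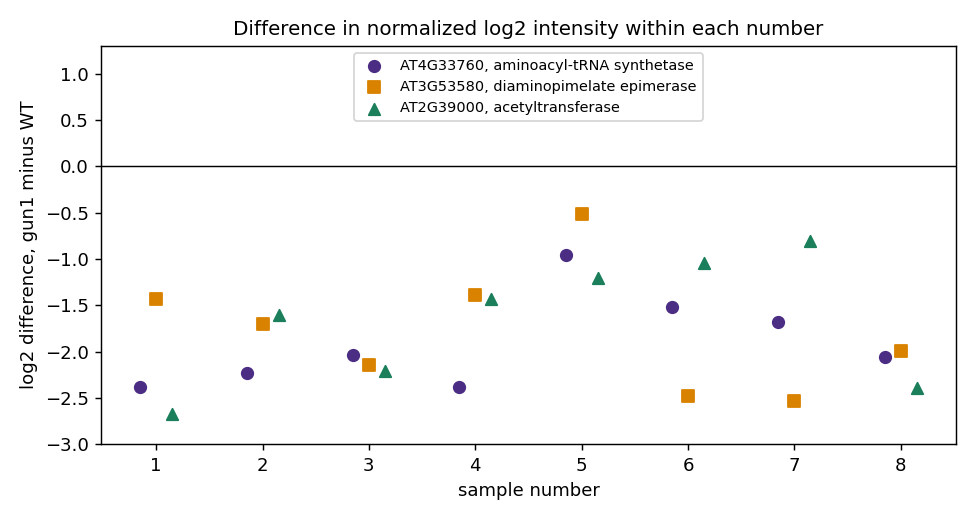
Difference in normalized log2 intensity, gun1 minus WT, within each of the 8 sample numbers for the 3 genes, 1 point per gene and number. All points lie below 0, from -2.67 to -0.52, and the smallest differences of AT3G53580 and AT4G33760 are in number 5.

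The scaling moved the size of the differences but not their direction. With a common median per sample the log2 difference was -1.63 for AT3G53580, -2.17 for AT4G33760 and -1.45 for AT2G39000. Over all tested probes the median difference was -0.05 after quantile normalization, -0.18 with a common median and 0.41 unscaled. Relative to that median, AT3G53580 was at -1.72 after quantile normalization, -1.45 with a common median and -1.50 unscaled. AT4G33760 was at -1.85, -1.99 and -1.85 on the same 3 scales. AT2G39000 was at -1.62, -1.26 and -1.17. Under cyclic loess the values relative to the median were -1.99 for AT3G53580, -1.78 for AT4G33760 and -1.69 for AT2G39000.

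**Figure D4:**
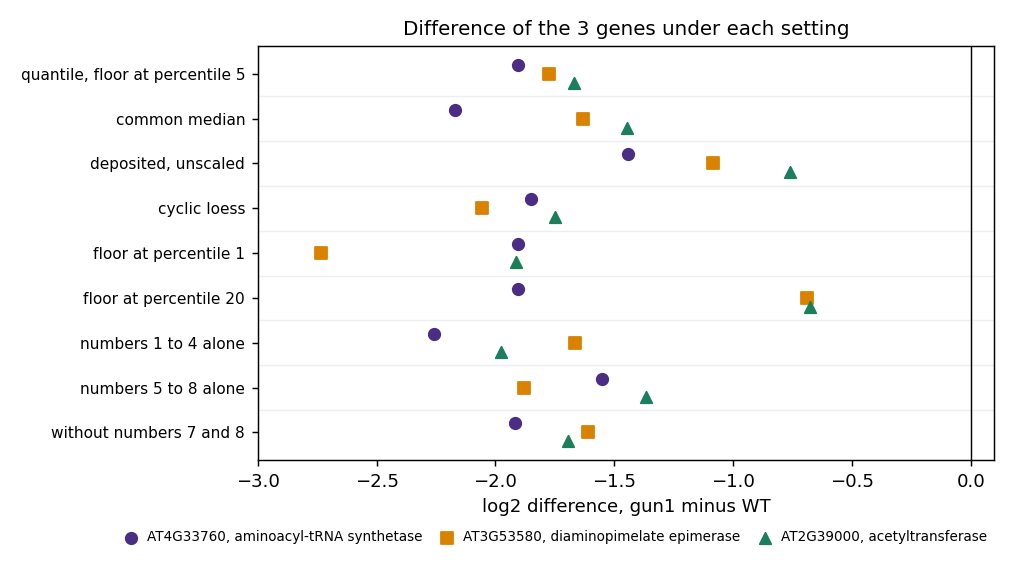
Log2 difference, gun1 minus WT, of the 3 genes under quantile normalization with the floor at the 5th percentile (top) and under other scalings, floors and subsets of numbers, 1 point per gene and setting. AT4G33760 stays between -2.26 and -1.44, while AT3G53580 and AT2G39000 come closest to 0, at -0.69 and -0.67, with the floor at the 20th percentile.

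Among WT samples, where none of the 3 genes was at the floor, no pair of them showed a relation that passed a test. AT3G53580 and AT4G33760 had r = -0.561 (exact permutation p = 0.157, adjusted 0.393) and rho = -0.548 (exact permutation p = 0.171, adjusted 0.268) over 8 samples. AT3G53580 and AT2G39000 had r = -0.346 (exact permutation p = 0.393, adjusted 0.393) and rho = -0.452 (exact permutation p = 0.268, adjusted 0.268). AT4G33760 and AT2G39000 had r = 0.382 (exact permutation p = 0.346, adjusted 0.393) and rho = 0.476 (exact permutation p = 0.243, adjusted 0.268). These were the 3 pairs computed, two-sided and adjusted over 3 by the Benjamini-Hochberg method. The permutations take the 8 samples as exchangeable, although WT samples of consecutive numbers resembled each other (mean r across probes 0.144). With 8 samples, a relation that is not strong could also be missed. Leaving out the 2 samples farthest from the median of the gene named first gave r = -0.273, -0.891 and 0.471 in the same order.

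In the order of falls among the 689 tested probes naming a single gene, AT4G33760 was at place 7, AT3G53580 at place 10 and AT2G39000 at place 12. The genes just above AT4G33760 were AT1G76450 (-1.97), of the PsbP family, and AT3G52070 (-1.91). Just below AT2G39000 came AT3G25840 (-1.65) and IYO (-1.60). The log2 differences next to one another in this order lay far closer together than the SD between samples, so the places carry little weight.

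The genes whose normalized values ran most like each of the 3 over the 16 samples were sought among 630 other single-gene probes with at most 8 samples at the floor. Closest to AT3G53580 were AT3G56250 (r = 0.927), AT2G01400 (r = 0.888) and AT4G13220 (r = 0.886). Closest to AT4G33760 were AT3G52070 (r = 0.961), AT1G06730 (r = 0.952) and AT5G46560 (r = 0.931). Closest to AT2G39000 were AT1G62780 (r = 0.865), AT5G66090 (r = 0.840) and AT1G06730 (r = 0.818). All of these genes were lower in gun1, and the difference between genotypes, which all share, enters these correlations.

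With each genotype's own mean subtracted, the correlations over the 16 samples were smaller. They were 0.743 for AT3G53580 with AT3G56250, 0.674 for AT4G33760 with AT3G52070, and 0.531 for AT2G39000 with AT1G62780. For AT2G39000 with AT5G66090 the value was higher, at 0.610. AT3G56250 and AT1G62780 each had 3 gun1 samples at the floor, AT2G01400 had 5 and AT5G66090 had 2. Values at the floor, in these genes and in AT3G53580 and AT2G39000, enter the correlations. So does variation that many probes share, since gun1 and WT samples of the same number had related deviations (mean r across probes 0.239). The genes were also picked for the highest r among 630, so these values are not specific to a pair. AT1G06730 was the 1 gene close to both AT4G33760 and AT2G39000, and with genotype means subtracted its r was 0.635 with AT4G33760 and 0.280 with AT2G39000. Its normalized intensity averaged 0.279 ± 0.0760 in gun1 and 0.775 ± 0.0835 in WT (SD, n = 8 each).

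The other genes of these pathways were sparsely measured. The 4 locus lists, with 169 genes in all, covered the aspartate family with lysine (25), aminoacyl-tRNA synthetases with the tRNA amidotransferase (51), acetyltransferases (41) and the synthesis of other amino acids (52). Beside the 3 genes, 5 listed genes had a probe of their own, and all 5 were called by limma, 4 lower and 1 higher in gun1. Samples of consecutive numbers resembled each other (mean r of their deviations across probes 0.251 in gun1 and 0.144 in WT), and with such pairs as a random block 3 of the 5 were called, while AT-HF of histidine synthesis (limma adjusted p = 0.0516) and CBL of methionine synthesis (adjusted p = 0.101) were not. With that block 733 of all 3419 tested probes were called. Without it 31.8% of all tested probes were called, and 36.1% of those naming a single gene. The median log2 difference of the 5 was -0.62, against -0.05 over all tested probes and -0.12 over those naming a single gene. No other listed lysine gene and no other listed synthetase was measured singly. The lists do not hold every gene of these pathways.

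Of the aspartate family, CBL (AT3G57050), the cystathionine beta-lyase of methionine synthesis, was the other measured member. Its normalized intensity was 0.0892, 0.196 and 0.279 in gun1 (lowest, median, highest), against 0.220, 0.268 and 0.356 in WT. The groups overlapped, and gun1 was lower in 6 of 8 numbers. The fall of -0.71 (SE 0.25, limma adjusted p = 0.0356) had the highest adjusted p of the 5, and in deposited values gun1 was lower in 4 of 8 numbers. Its call was lost without scaling (log2 -0.07, adjusted p = 0.826), without the numbers 7 and 8 (adjusted p = 0.0904), in the numbers 1 to 4 alone (adjusted p = 0.235), with the random block above, and on removing gun1 replicate 1, 2 or 6 or WT replicate 3, 6 or 8 (each alone, adjusted p between 0.0583 and 0.0683).

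Among acetyltransferases, AT1G24040, of the same GNAT superfamily as AT2G39000, was the other measured gene. Its normalized intensity was 0.226, 0.312 and 0.561 in gun1 (lowest, median, highest), against 0.466, 0.666 and 0.859 in WT. Only gun1 number 8 reached into the WT range. It fell in all 8 numbers (log2 -1.02, SE 0.20, limma adjusted p = 0.00104), also in deposited values, and was the 1 gene of the 5 still called with consecutive numbers averaged (adjusted p = 0.0214). Its difference of -1.02 and that of AT2G39000, -1.67, were not tested against each other.

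Of the list for the synthesis of other amino acids, 3 genes were measured, 2 lower and 1 higher in gun1. AT3G58610, ketol-acid reductoisomerase of branched-chain amino acid synthesis, averaged 0.251 ± 0.0472 in gun1 and 0.383 ± 0.0529 in WT (SD, n = 8 each; log2 -0.62, SE 0.14, limma adjusted p = 0.00394). AT3G23940, the dihydroxyacid dehydratase that acts next in that pathway, averaged 0.534 ± 0.0932 in gun1 and 0.773 ± 0.0773 in WT (SD, n = 8 each; log2 -0.55, SE 0.13, limma adjusted p = 0.00431). Both genes were lower in gun1 in all 8 numbers after normalization, and in deposited values AT3G58610 was lower in 5 of 8 and AT3G23940 in 7 of 8. Unscaled, the reductoisomerase was not called (log2 -0.13, adjusted p = 0.530), while the dehydratase was (log2 -0.40, adjusted p = 0.0269).

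AT-HF (AT4G26900), the imidazole glycerol phosphate synthase of histidine synthesis, went the other way. Its normalized intensity averaged 0.168 ± 0.0479 in gun1 and 0.0964 ± 0.0327 in WT (SD, n = 8 each). It rose by 0.82 on the log2 scale (SE 0.23, limma adjusted p = 0.0119) and was lower in gun1 in 1 of 8 numbers, number 7. The call was lost under cyclic loess (adjusted p = 0.0557) as well as with the random block above, and the log2 difference was 1.82 unscaled. With consecutive numbers averaged, the calls of AT-HF, CBL, AT3G58610 and AT3G23940 were lost (adjusted p from 0.0546 to 0.115), and in numbers 5 to 8 alone limma called 0 of the 5 genes, with 2 at an unadjusted p under 0.05.

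**Figure D5:**
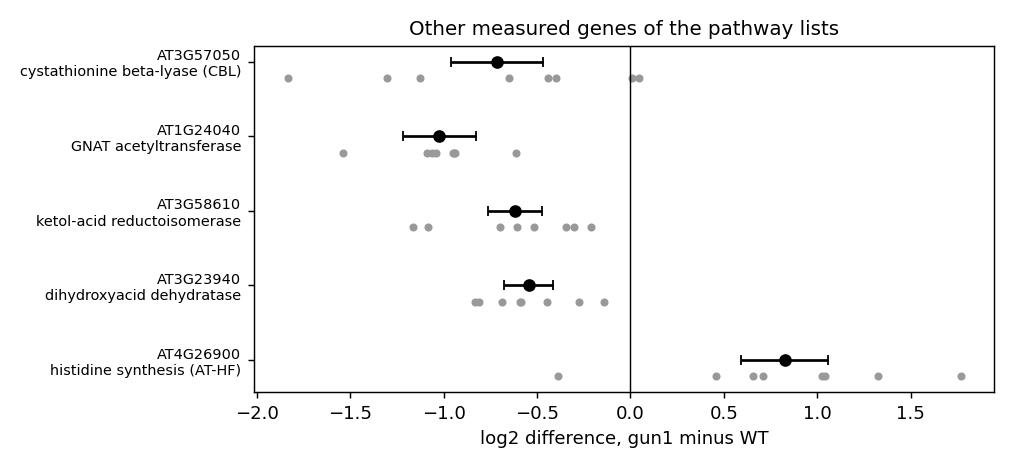
Log2 difference, gun1 minus WT, of the 5 other measured genes of the pathway lists: black points with bars are limma estimates ± SE over 8 samples per genotype, and grey points are the 8 single numbers. The estimates of CBL, AT1G24040, AT3G58610 and AT3G23940 lie below 0, with 2 numbers of CBL just above it, and AT-HF lies above 0 in all numbers but 1.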

How the data were processed

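Groups came from the sample titles. The authors' deposited table holds 1 intensity per probe and sample on a linear scale. How those intensities were made is not given in the sources used here, and the number of arrays limits the precision. Quantile normalization was done in limma (3.58.1, under R 4.3.3), values listed at 0 or below the 5th percentile of positive values were set to it (0.0313), and log2 was taken. The fit used lmFit and eBayes, 8 gun1 against 8 WT, two-sided, with no covariate, adjusted by Benjamini-Hochberg over 3419 probes. Left out were 20 probes constant in all samples. Fold values compare geometric means.

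The platform's annotation names 1 gene for 692 probes, several for 870 and none for 1877. Of the 692, 690 matched the RefSeq table of TAIR10.1, used for names and transcript numbers. The 3 genes, the lists and the alternatives were chosen with earlier results of these data known. Genes named are the 3, all other measured list genes, the 3 most similar to each and the neighbours in the order of falls. Sample numbers pair the genotypes, judging from the values: deviations from the group mean correlated in all 8 numbers (r across probes 0.143 to 0.421). The fit was tested on simulated data. Exact permutations used scipy 1.17.1, and figures matplotlib 3.10.9.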

Additional observations from a re-analysis of the deposited data

Results flagged for a closer look

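Among 32 groups of 8 samples, for the 3 genes, the 5 list genes and the most similar genes, 2 held a sample far from the rest, and chance gives about 1 in 20 groups. AT4G33760 was high in gun1 replicate 5, at a normalized intensity of 0.323 against a median of 0.130 in the other 7 gun1 samples; the deposited value, 0.350, stood out as well. AT1G24040 was high in gun1 replicate 8, at 0.561 against a median of 0.287 in the others. No explanation was tested for either.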

How the results depend on the processing

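The 3 genes were lower in gun1 under all 28 alternatives run for each, of which 16 left out 1 sample. Blocking by number, averaging or blocking consecutive numbers and leaving out probes of low mean intensity could not move these differences. Those alternatives therefore returned the main values and say nothing about direction. The genes were chosen by this contrast and were lower in all 8 numbers after normalization. Subsets of numbers and changed floors therefore could not reverse the sign, and leaving out 1 sample had little room to. Only the other scalings could have given another direction. The variance model was not run for the 3 genes because it cannot change a difference. Unscaled, the log2 difference was -1.08 for AT3G53580, -1.44 for AT4G33760 and -0.76 for AT2G39000. With the floor at the 20th percentile it was -0.69 for AT3G53580 and -0.67 for AT2G39000, and with the floor at the 1st it was -2.73 for AT3G53580. Leaving out 1 sample gave -1.96 to -1.67 for AT3G53580, -2.07 to -1.83 for AT4G33760 and -1.86 to -1.56 for AT2G39000.

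The 1088 called probes became 592 with consecutive numbers averaged into 4 samples per genotype, 583 in numbers 1 to 4 and 324 in numbers 5 to 8, where fewer samples enter, and 996 to 1065 without 1 sample. With a common median 1020 were lower and 531 higher in gun1, unscaled 206 lower and 1219 higher, against 521 and 567. Of the 5 list genes 3 were called unscaled, 1 with consecutive numbers averaged, 3 with them as a random block, 0 in numbers 5 to 8, and 4 to 5 without 1 sample. With the replicate number as a block 1293 probes and all 5 list genes were called, and no call of those 5 changed. Leaving out the numbers 7 and 8 was chosen after seeing the data. Dim values limit AT3G53580 and AT2G39000, whose gun1 samples lie partly at the floor.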

Other observations

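Genes of the 4 lists were also named by probes that list several genes, which cannot be assigned to one of them. The search used locus names, so a probe giving a list gene only by another symbol would be missed. Of the 7 probes found and tested, limma called 0 at an adjusted p under 0.05 and had 2 at an unadjusted p under 0.05. Over all 3419 tested probes 31.8% were called. Their log2 differences, gun1 minus WT, ranged from -0.86 to 1.01. The 3 that list an aspartate family gene lay between 0.41 and 1.01, and the 2 that list a synthetase gene at -0.86 and 0.49.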
